A study of Mus musculus with 24 samples.

Results

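The response of mouse bone-marrow-derived macrophages to GW3965, a synthetic agonist of the liver X receptors, was compared between cells lacking both receptors and cells carrying them. For each gene the quantity was the response of double-knockout cells (GW3965 minus vehicle) minus the response of receptor-positive cells, on the log2 scale. It was computed from 12 of the 24 libraries of the series, in 4 groups of 3: DKO cells with GW3965, DKO cells with vehicle, LXR-positive cells with GW3965 and LXR-positive cells with vehicle. DKO cells came from mice lacking LXRα and LXRβ, and both genotypes are labelled C57BL/6J and 8 to 12 weeks of age. Bone marrow was differentiated with conditioned medium from L929 cells, a source of the macrophage growth factor CSF1, which was renewed after 4 days. GW3965 at 1 µM or vehicle was given on day 5 for 17 hours. Each library came from 1 mouse, and the 6 mice each gave a library per treatment. The p-values of the main fit use the spread between the 3 mice within a group, shared over the 4 groups, without pairing libraries by mouse. A fit with mouse as a block was run beside it. All 47372 genes of the table were considered; 14518 had 0 reads in the 12 libraries, and 16116 passed a filter of 10 normalized counts in at least 3 libraries and were tested. A negative difference means a lower response in DKO cells.

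Liver X receptors, LXRα (Nr1h3) and LXRβ (Nr1h2), are nuclear receptors that pair with RXR on DNA and are activated by oxidized derivatives of cholesterol. In macrophages they are known for switching on cholesterol export (Abca1, Abcg1), for a ubiquitin ligase that limits sterol uptake (Mylip), and for Srebf1, the gene of the transcription factor SREBP-1 that drives fatty acid synthesis. Without ligand the receptors can sit on their target genes with corepressors and hold them down. The pair binds direct repeats of a half-site with 4 bases between them, the DR4 element.

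Promoter windows of 4 genes whose response differed are shown because they carry letters close to that element. A DR4-like match was AGGTCA, any 4 bases and AGGTCA again, on either strand, with at most 3 mismatches among these 12 letters. Windows run from 250 bases before to 50 after the RefSeq start (RefSeq, GRCm38.p6), and the 4 genes lie on the minus strand: Abca1 at chr4:53159846-53160145, Srebf1 at chr11:60210422-60210721, Fasn at chr11:120824498-120824797 and Arl4c at chr1:88702142-88702441. Capitals mark the match, which in each window lies on the opposite strand to the gene. In Arl4c they cover 2 overlapping matches.
Abca1: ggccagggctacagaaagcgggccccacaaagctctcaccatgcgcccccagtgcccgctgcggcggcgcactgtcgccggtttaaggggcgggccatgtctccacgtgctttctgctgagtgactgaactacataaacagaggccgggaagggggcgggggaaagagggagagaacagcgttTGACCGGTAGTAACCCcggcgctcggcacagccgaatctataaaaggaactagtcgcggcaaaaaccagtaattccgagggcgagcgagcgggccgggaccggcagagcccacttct
Srebf1: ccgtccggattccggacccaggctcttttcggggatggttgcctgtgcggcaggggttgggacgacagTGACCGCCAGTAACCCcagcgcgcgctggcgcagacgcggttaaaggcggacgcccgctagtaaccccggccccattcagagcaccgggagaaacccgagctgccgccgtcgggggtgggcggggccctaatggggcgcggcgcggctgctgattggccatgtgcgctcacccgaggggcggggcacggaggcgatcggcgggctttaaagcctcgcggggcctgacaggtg
Fasn: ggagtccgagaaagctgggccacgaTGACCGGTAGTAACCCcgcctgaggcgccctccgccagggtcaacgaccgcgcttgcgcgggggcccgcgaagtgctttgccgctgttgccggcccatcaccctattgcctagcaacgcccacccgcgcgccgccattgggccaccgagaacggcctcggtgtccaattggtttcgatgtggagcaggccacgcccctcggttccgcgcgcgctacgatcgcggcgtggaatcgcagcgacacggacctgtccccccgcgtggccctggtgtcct
Arl4c: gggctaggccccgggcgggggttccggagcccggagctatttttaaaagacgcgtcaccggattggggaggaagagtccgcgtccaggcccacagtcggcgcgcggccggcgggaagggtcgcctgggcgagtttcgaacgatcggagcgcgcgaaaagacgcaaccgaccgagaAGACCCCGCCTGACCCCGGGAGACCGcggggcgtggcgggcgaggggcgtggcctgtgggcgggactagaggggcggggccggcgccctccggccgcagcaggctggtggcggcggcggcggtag

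Read on its own strand, the match was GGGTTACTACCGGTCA in both Abca1 and Fasn and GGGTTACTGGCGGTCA in Srebf1. It lay 67 to 52 bases before the start of Abca1, 182 to 167 before a start of Srebf1 and 225 to 210 before that of Fasn. RefSeq gives 3 windows for Srebf1, and the one shown belongs to a start 12110 bases inside the gene; the other 3 genes shown have 1 window each. These letters, searched as GGGTTACTNNCGGTCA on both strands, were in the windows of those 3 genes and no others among 32851 windows of the table (0.00913%). The search pattern was chosen after the matches were seen. The looser DR4-like match was common: 7 of the 14 called genes with a window held at least 1, against 2246 of the 10538 tested genes with a window (21.3%). Counted by window, it was in 7 of 18 windows of called genes (38.9%), 18.3% of windows of tested genes and 21.9% of all windows. The 7 genes were Abca1, Srebf1, Fasn, Arl4c, Pank1, Insig1 and Eepd1.

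The targeted genes came first. Nr1h2 stood at 290, 338 and 398 normalized counts in DKO cells with GW3965, at 312, 275 and 399 with vehicle in DKO cells, at 468, 488 and 656 in LXR-positive cells with GW3965 and at 523, 570 and 654 in LXR-positive cells with vehicle. All 6 DKO libraries lay below every LXR-positive one. Its response did not pass the test for a genotype difference (0.19 ± 0.25 SE, 95% interval -0.36 to 0.74, limma adjusted p = 0.99). Nr1h3 averaged 193 ± 75.0 and 181 ± 5.43 in DKO cells with GW3965 and vehicle, and 142 ± 15.4 and 135 ± 35.8 in LXR-positive cells (SD, n = 3), with a difference in response of -0.08 ± 0.36 (adjusted p = 1.0). Both values sum reads over whole genes, and which exons were deleted is not stated in the labels, so they do not check the knockout.

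DKO libraries were deeper, at 9705391 to 17671480 reads with GW3965 and 20659071 to 27189081 with vehicle, against 6448579 to 8793205 and 10540385 to 17348717 in LXR-positive cells. The 12 listed macrophage markers were detected in every group, with summed levels of 205713 to 267023 normalized counts in DKO cells with GW3965, 191054 to 225978 in DKO cells with vehicle, 279800 to 317650 in LXR-positive cells with GW3965 and 243999 to 315474 in LXR-positive cells with vehicle. Sums of the 12 stromal markers, collagens among them, were 2146 to 10975, 368 to 5713, 314 to 1307 and 166 to 1272 in the same 4 groups, with Lum alone at 0 throughout a group (LXR-positive vehicle). The 13 neutrophil and precursor markers summed to 8114 to 12013, 6492 to 9456, 3972 to 6534 and 4636 to 4793. The part of these cells in the results was not tested, and in bulk RNA fewer cells of a type and less RNA per cell cannot be told apart. With all libraries thinned to the shallowest, 19 genes were again called, 18 of them the same.

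A genotype difference in the GW3965 response was called for 19 of 16116 genes (0.118%). Of these, 18 responded lower in DKO cells (0.112%) and 1 higher (0.00621%), in limma with Benjamini-Hochberg adjustment at an adjusted p under 0.05. DESeq2 called 55 (50 lower, 5 higher), all 19 among them, and 752 genes had an unadjusted p under 0.05 in limma. Of the 18 lower genes, 17 rose with GW3965 in LXR-positive cells, where 40 genes rose in all (0.248% of those tested). In these 17 the LXR-positive response ran from 1.04 to 6.79 with a median of 1.77. The DKO response ran from -0.31 to 0.32 with a median of 0.01, was above 0 in 9, and had a 95% interval that includes 0 in all 17. The upper bounds of those intervals had a median of 0.32 and reached 0.85 (Fads2) and 1.54 (Scd1). A response of some of these genes in DKO cells is therefore within the error, and for Scd1 it need not be small. In all 17 the 3 LXR-positive GW3965 libraries lay above every library of the other 3 groups, as they did for 1.97% of tested genes. That description uses the libraries that made the calls and supports nothing further.

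**Figure D1:**
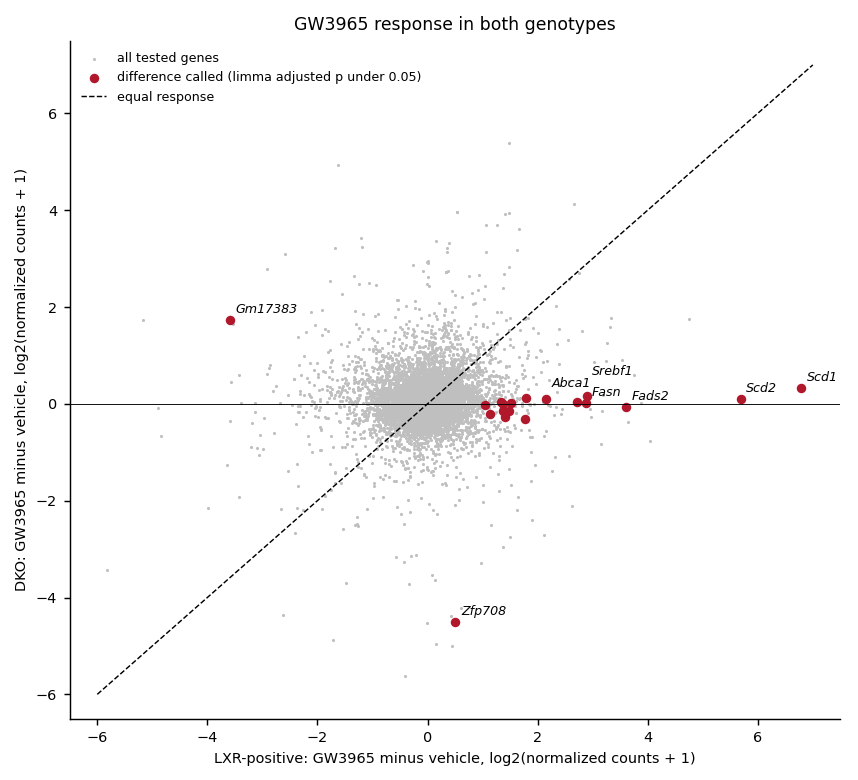
Response to GW3965 (log2, GW3965 minus vehicle) of every tested gene in DKO cells, on the vertical axis, against LXR-positive cells, on the horizontal axis, with the 19 called genes marked; the dashed line marks equal responses. The 17 induced genes lie along a DKO response of about 0 (-0.31 to 0.32), and Gm17383 and Zfp708 lie apart.

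Of 15 genes listed for cholesterol efflux and lipoprotein handling, 5 rose with GW3965 in LXR-positive cells, where 0.248% of tested genes did. In DKO cells 0 were called (0.00621% of tested genes), and 0 had an unadjusted p under 0.05 in limma. Abcg1, which passes cholesterol to high-density lipoprotein (ENSMUSG00000024030, GRCm38 chromosome 17, 31057698 to 31115777), stood at 3182, 2983 and 2827 normalized counts in DKO cells with GW3965 and at 3007, 3341 and 2489 with vehicle. In LXR-positive cells it stood at 12493, 13284 and 12038 with GW3965 and at 1959, 2005 and 1823 with vehicle. The DKO groups overlapped and lay between the LXR-positive ones. The difference in response was -2.67 ± 0.15 (adjusted p = 1.2e-05), made of 0.03 in DKO cells (95% interval -0.20 to 0.27) and 2.71 in LXR-positive cells.

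Abca1, which hands cholesterol to apolipoprotein A-I (ENSMUSG00000015243, chromosome 4, 53030787 to 53159895), stood at 16446, 17074 and 14916 normalized counts in DKO cells with GW3965 and at 14347, 16732 and 14223 with vehicle. LXR-positive cells had 37655, 42061 and 35962 with GW3965 and 9154, 8698 and 8200.1 with vehicle. Again the DKO libraries overlapped each other and lay above all LXR-positive vehicle libraries and below all LXR-positive GW3965 libraries. Its difference was -2.05 ± 0.14 (adjusted p = 4.4e-05), with a DKO response of 0.10 (95% interval -0.12 to 0.32).

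Arl4c, a small GTPase gene linked to cholesterol export (chromosome 1, 88673125 to 88702221), averaged 1951 ± 318 and 2236 ± 123 in DKO cells with GW3965 and vehicle, against 5642 ± 348 and 2567 ± 324 in LXR-positive cells (SD, n = 3; difference -1.35 ± 0.18, adjusted p = 0.010). Eepd1, whose product promotes export through ABCA1 (chromosome 9, 25481547 to 25604110), stood at 435, 361 and 431 in DKO cells with GW3965 and 361, 377 and 467 with vehicle, against 1072, 841 and 1070 in LXR-positive cells with GW3965 and 431, 362 and 386 with vehicle. Its 2 DKO groups and the LXR-positive vehicle group shared 1 range, below all LXR-positive GW3965 libraries (difference -1.30 ± 0.20, adjusted p = 0.026). Eepd1 lost its call with thinned reads (0.059) and without any 1 library other than DKO vehicle 1, LXR-positive GW3965 2 or LXR-positive vehicle 1 (adjusted p 0.053 to 0.10).

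Of the 15 listed genes, all tested, those 4 were called lower (0.112% of all tested genes) and 12 lay below 0 (48.3% of all tested genes), with a median difference of -0.59 against 0.01 over all tested genes. Among the rest, Apoc2, an apolipoprotein that activates lipoprotein lipase, had a difference of -1.63 ± 0.38 that did not pass (adjusted p = 0.36). With mouse as a block it did (0.017). Apoe, the apolipoprotein macrophages secrete most, averaged 62825 ± 8686 normalized counts in DKO cells with GW3965 and 60901 ± 12211 with vehicle, against 60185 ± 10209 and 46932 ± 5926 in LXR-positive cells, a difference that did not pass (adjusted p = 0.99).

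**Figure D2:**
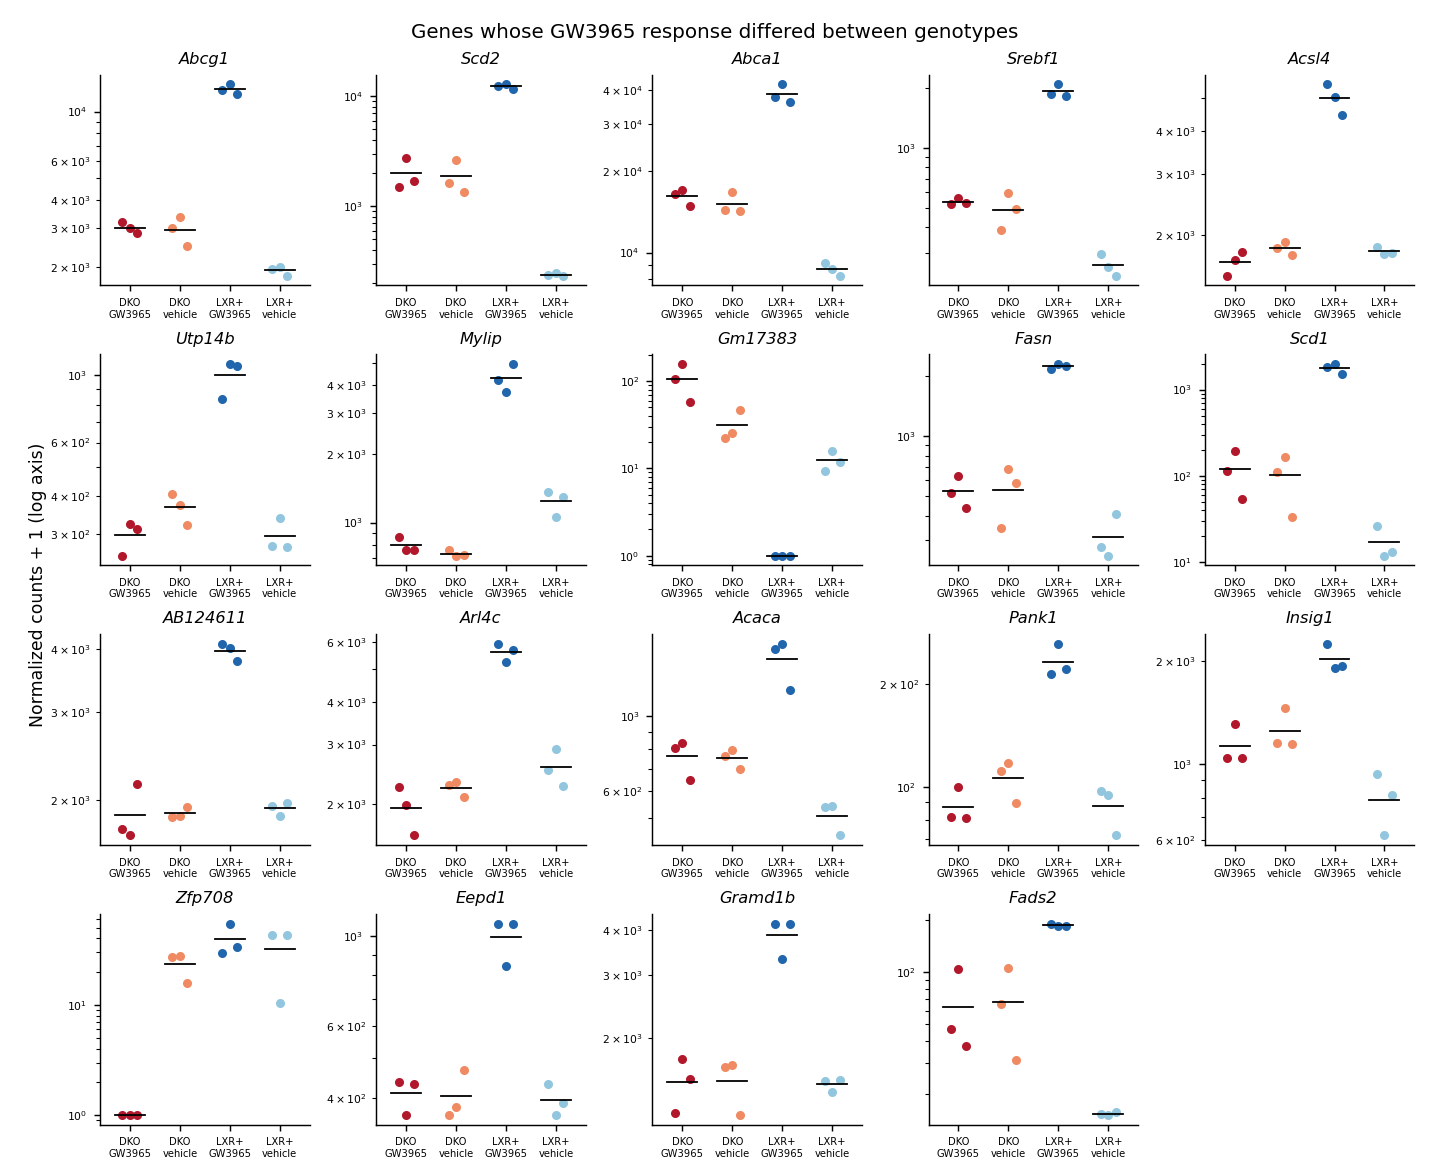
Normalized counts + 1 (log axis) in each of the 12 libraries for the 19 called genes, by group, with DKO cells left of LXR-positive cells and GW3965 left of vehicle; lines are group means. In LXR-positive cells the GW3965 libraries stand above all others for the 17 induced genes, while the DKO GW3965 and vehicle libraries overlap.

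Fatty acid genes included the most negative difference of all tested genes, that of Scd1. Srebf1 (ENSMUSG00000020538, chromosome 11, 60199089 to 60222581) stood at 521, 560.0 and 531 normalized counts in DKO cells with GW3965 and at 386, 591 and 491 with vehicle. LXR-positive cells had 1852, 2079.5 and 1811 with GW3965 and 293, 252 and 228 with vehicle. The DKO groups overlapped between the 2 LXR-positive groups. The difference was -2.74 ± 0.21 (adjusted p = 8.0e-05), and the DKO response 0.15 (-0.17 to 0.48). Srebf1 shares 109 exon bases with Rai1 on the opposite strand, and whether counting used strand is not stated in the labels. Likewise Gramd1b (114 bases with 1700110K17Rik), Lpcat3 (334 with Emg1) and Il1a (222 with Gm14023), described further on, overlap genes on the opposite strand.

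Scd2, a desaturase that puts the first double bond into fatty acids (ENSMUSG00000025203, chromosome 19, 44293676 to 44306864), stood at 1509, 2762 and 1688 normalized counts in DKO cells with GW3965 and at 1618, 2646 and 1344 with vehicle. In LXR-positive cells it stood at 12477, 12882 and 11701 with GW3965 and at 238, 245 and 232 with vehicle. The DKO groups lay over each other, far above one LXR-positive group and far below the other (difference -5.59 ± 0.34, adjusted p = 1.2e-05).

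Scd1, its close copy on the same chromosome (44394451 to 44407709), stood at 114, 191 and 53.2 normalized counts in DKO cells with GW3965, at 111, 164 and 32.5 with vehicle, and in LXR-positive cells at 1846, 1982 and 1522 with GW3965 and at 24.98, 10.9 and 12.2 with vehicle. The difference was -6.48 ± 0.79 (adjusted p = 0.0052), and the DKO response was 0.32 (-0.91 to 1.54). How reads were divided between Scd copies is uncertain.

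In DKO cells Scd1 varied more between mice than between treatments: it averaged 119 ± 69.0 with GW3965 and 103 ± 66.3 with vehicle (SD, n = 3). DKO mouse 2 had the highest and DKO mouse 3 the lowest Scd1 value with GW3965 and with vehicle alike. Fads2, the desaturase that starts the synthesis of long polyunsaturated fatty acids (chromosome 19, 10064164 to 10101503), followed the same order, at 45.8, 104 and 36.7 in DKO cells with GW3965 and 64.3, 105 and 30.2 with vehicle. LXR-positive cells had 189, 184 and 183 Fads2 counts with GW3965 and 14.3, 14.01 and 14.7 with vehicle. Its difference was -3.68 ± 0.60 (adjusted p = 0.044), closest to the threshold of all 19. The Fads2 call ended without any 1 library other than DKO GW3965 2 or DKO vehicle 3 (adjusted p 0.098 to 0.18), in edgeR (0.079) and with a pseudocount of 8 (0.051).

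Fasn, fatty acid synthase (ENSMUSG00000025153, chromosome 11, 120805846 to 120824547), stood at 519, 629 and 436 normalized counts in DKO cells with GW3965, 346, 680.1 and 583 with vehicle, 2186, 2306 and 2243 in LXR-positive cells with GW3965 and 278, 251 and 407 with vehicle. Acaca, acetyl-CoA carboxylase, which makes the substrate of Fasn (chromosome 11, 84129672 to 84401651), averaged 760.3 ± 98.98 and 751 ± 49.3 in DKO cells with GW3965 and vehicle, against 1469 ± 239 and 508 ± 55.5 in LXR-positive cells. For both genes all LXR-positive GW3965 libraries lay above all DKO libraries, and the differences were -2.86 ± 0.34 (adjusted p = 0.0043) for Fasn and -1.51 ± 0.20 (adjusted p = 0.010) for Acaca.

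Insig1, which holds SREBP proteins in the endoplasmic reticulum (chromosome 5, 28071363 to 28078662), averaged 1133 ± 156 in DKO cells with GW3965 and 1251 ± 177 with vehicle, against 2029.7 ± 188 and 789 ± 159 in LXR-positive cells (difference -1.52 ± 0.23, adjusted p = 0.024). Without any 1 of LXR-positive GW3965 1 to 3, LXR-positive vehicle 3, DKO GW3965 1 or 3 or DKO vehicle 2 it was not called (0.063 to 0.090).

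Of the 21 genes listed for fatty acid synthesis, elongation and desaturation, 20 were tested, 5 were called lower, against 0.112% of all tested genes, and 16 lay below 0, against 48.3% (median -0.59). Srebf1 and Insig1 were the 2 of 12 SREBP machinery genes called (median -0.11). Srebf2, the gene of SREBP-2, had a difference of -0.53 (adjusted p = 0.96), and Scap, the escort of SREBP proteins, 0.53 (0.99).

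Acsl4 and Pank1 act in the synthesis of coenzyme A or of its fatty acid esters. Acsl4, an acyl-CoA synthetase that activates arachidonic acid (ENSMUSG00000031278, chromosome X, 142317993 to 142390535), stood at 1518, 1684 and 1785 normalized counts in DKO cells with GW3965 and at 1830.4, 1902 and 1746 with vehicle. LXR-positive cells had 5479.8, 5023 and 4452 with GW3965 and 1836, 1755 and 1769 with vehicle. The vehicle groups of the genotypes overlapped, and the LXR-positive GW3965 libraries stood alone. Its difference of -1.61 ± 0.14 (adjusted p = 0.00019) came with a DKO response of -0.14 (-0.35 to 0.07).

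Pank1, pantothenate kinase, the first enzyme of coenzyme A synthesis (chromosome 19, 34810894 to 34879455), averaged 86.4 ± 10.97 and 105 ± 14.7 in DKO cells with GW3965 and vehicle, against 232 ± 26.1 and 86.9 ± 13.9 in LXR-positive cells (difference -1.69 ± 0.25, adjusted p = 0.024). It lost the call without any 1 library other than DKO GW3965 2, DKO vehicle 3 or LXR-positive vehicle 1 or 2 (0.052 to 0.094). Of the 15 phospholipid and acyl-CoA synthetase genes listed, 14 were tested and Acsl4 alone was called lower (0.112% of all tested genes). Below 0 lay 7 (48.3% of all tested genes) and above 0 lay 7 (51.7%), with a median of 0.04. Pank1 is not on that list.

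In sterol uptake, Mylip, a ubiquitin ligase that limits lipoprotein uptake (ENSMUSG00000038175, chromosome 13, 45389742 to 45412019), stood at 866, 759.7 and 757 normalized counts in DKO cells with GW3965 and at 758, 716 and 717 with vehicle. In LXR-positive cells it stood at 4203, 3729.6 and 4930.0 with GW3965 and at 1357, 1053 and 1295 with vehicle. Here both DKO groups lay below both LXR-positive groups (difference -1.68 ± 0.18, adjusted p = 0.0014). Gramd1b, whose product carries cholesterol from the plasma membrane to the endoplasmic reticulum (chromosome 9, 40293233 to 40531383), averaged 1511 ± 259 and 1521 ± 261 in DKO cells with GW3965 and vehicle, against 3889 ± 488 and 1488 ± 65.3 in LXR-positive cells (-1.39 ± 0.22, adjusted p = 0.035). The Gramd1b call ended with mouse as a block (0.054) and without any 1 library other than DKO GW3965 2, DKO vehicle 3 or LXR-positive GW3965 2 (0.088 to 0.13). Of 15 listed genes of sterol uptake and intracellular carriers, 14 were tested and these 2 were called (median -0.12). A broader list of 24 LXR targets, which overlaps the lists above, held 10 genes called lower (0.112% of all tested genes). In it 21 lay below 0 (48.3%), with a median of -1.33. All lists were chosen with earlier results of these data known, so such shares are no independent support.

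Of less-known genes, Utp14b, a retrocopy of a ribosome biogenesis gene that lies inside Acsl3 (chromosome 1, 78658038 to 78671512), averaged 295 ± 36.9 and 366 ± 42.7 in DKO cells with GW3965 and vehicle, against 1002 ± 142 and 293 ± 38.8 in LXR-positive cells (-2.08 ± 0.21, adjusted p = 0.0014). Utp14b and Acsl3 share 244 exon bases on 1 strand, so their reads can be divided wrongly. Acsl3, another acyl-CoA synthetase gene, stood at 294, 305 and 205 in DKO cells with GW3965, 319, 304 and 189 with vehicle, 984, 1142 and 868 in LXR-positive cells with GW3965 and 201, 251 and 349 with vehicle. Its difference of -1.92 ± 0.35 did not pass (adjusted p = 0.099), and with mouse as a block it did (0.040). AB124611, a gene of uncertain role (chromosome 9, 21526176 to 21545333), averaged 1869 ± 251 and 1884 ± 50.2 in DKO cells with GW3965 and vehicle, against 3966 ± 165 and 1929 ± 59.7 in LXR-positive cells (-1.06 ± 0.14, adjusted p = 0.0080). It had the smallest difference of the 19.

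The remaining pair of calls rested on a group at 0. Zfp708, a zinc finger gene (chromosome 13, 67069398 to 67081545), had 0 reads in the 3 DKO GW3965 libraries, against 26.1, 26.7 and 14.9 normalized counts in DKO cells with vehicle, 28.5, 53.5 and 32.4 in LXR-positive cells with GW3965 and 41.6, 9.34 and 41.5 with vehicle. With a floor of 3 reads per library it was at least 8.27-fold lower with GW3965 than with vehicle in DKO cells. Zfp708 was the 1 gene of 16116 (0.00621%) that limma called in the DKO response itself (adjusted p = 0.037). That call ended in edgeR and with mouse as a block (0 genes each), and of the 12 fits without 1 library it held only in that without LXR-positive vehicle 2. DESeq2 called 26 genes there, Zfp708 among them. It shares 2537 of its 2633 exon bases with Gm28557 on the same strand, and its reads cannot be assigned with certainty.

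Gm17383, a pseudogene and the 1 gene called higher (chromosome 18), stood at 104, 157 and 57.0 normalized counts in DKO cells with GW3965, 21.3, 24.3 and 45.5 with vehicle, 0 in the 3 LXR-positive GW3965 libraries and 8.33, 14.8 and 10.997 with vehicle. On the same floor it was at least 2.15-fold lower with GW3965 than with vehicle in LXR-positive cells. Libraries at 0 also occurred without GW3965. With AcLDL, Gm17383 stood at 36.7, 0 and 0 in LXR-positive cells and at 59.0, 91.2 and 57.3 in DKO cells. Zfp708 with AcLDL stood at 0, 29.7 and 0 in LXR-positive cells and at 29.9, 0 and 23.8 in DKO cells. What set these libraries to 0 was not tested. The fitted differences, -5.02 ± 0.76 (adjusted p = 0.025) for Zfp708 and 5.32 ± 0.61 (0.0032) for Gm17383, depend on the pseudocount and are no bounds. Both calls ended with all 24 libraries in the fit (0.99 and 0.46), in edgeR (0.098 and 0.079) and with a pseudocount of 8 (0.33 and 0.051). That of Zfp708 also ended with mouse as a block (0.10) and without any 1 DKO GW3965 or LXR-positive GW3965 library or DKO vehicle 1 or 2 (0.058 to 0.11).

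The 17 induced genes differed in where DKO cells stood before GW3965. In 8 of them (Abcg1, Scd2, Abca1, Srebf1, Scd1, Acaca, Insig1 and Fads2) all DKO vehicle libraries lay above all LXR-positive vehicle libraries, as in 7.58% of tested genes. In 1, Mylip, they lay below (10.1% of tested genes). In the other 8 (Acsl4, Utp14b, Fasn, AB124611, Arl4c, Pank1, Eepd1 and Gramd1b) the vehicle ranges overlapped. The groups were formed after the values were seen and get no test of their own, and vehicle libraries enter both the difference and this description.

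Tested gene by gene over all 16116, 4 of the 19 were higher in DKO than in LXR-positive cells with vehicle (0.242% of tested genes). In the other direction 1 was lower (0.0745%). The same vehicle libraries helped to select the 19, so these counts are a description and support nothing further. Scd2 was 2.91 ± 0.24 higher (limma adjusted p = 0.00011), Abca1 0.80 ± 0.10 (0.0053), Srebf1 0.91 ± 0.15 (0.025) and Abcg1 0.60 ± 0.11 (0.044). Mylip was lower, at -0.75 ± 0.12 (0.027). For these 4 higher genes the vehicle level of DKO cells already covered 51.1%, 37.0%, 31.4% and 22.2% of the LXR-positive response on the log2 scale. For Acsl4, Eepd1, Gramd1b and AB124611 the vehicle difference ran from -0.03 to 0.03, with 95% intervals within -0.32 to 0.36. With GW3965 all 19 differed between genotypes, where 9.64% of tested genes did. The GW3965 libraries also enter the difference that selected the 19, so this count was largely set by the selection.

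**Figure D3:**
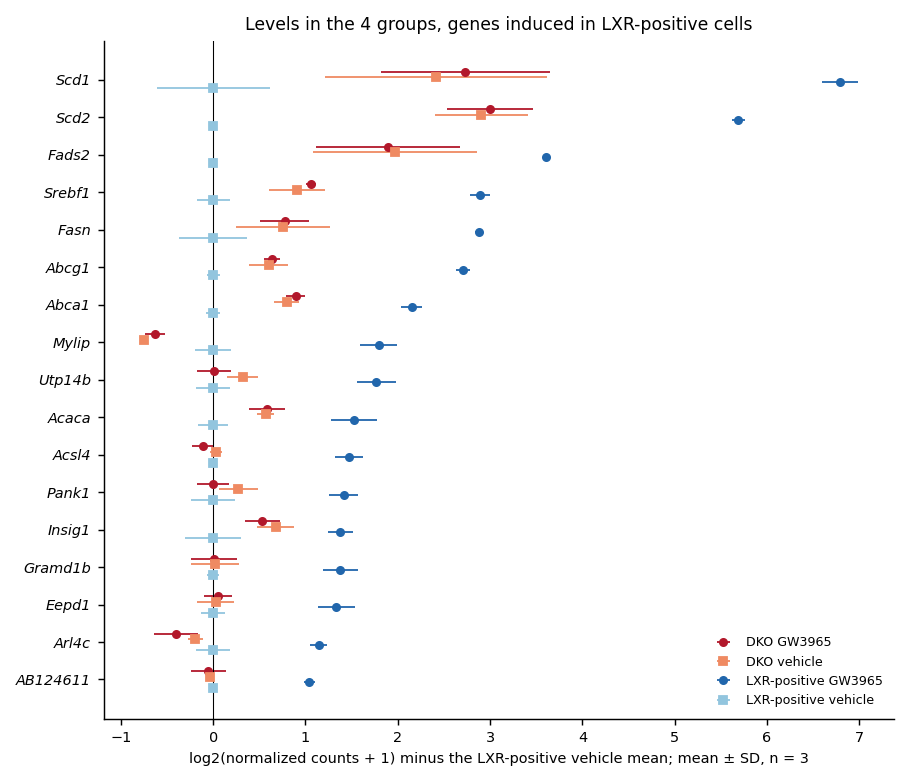
Level of the 17 induced genes in the 4 groups as log2(normalized counts + 1) minus the mean of LXR-positive cells with vehicle; points are means and bars SD (n = 3). DKO points with and without GW3965 lie close to each other, from below 0 for Mylip to 2.91 above it with vehicle for Scd2.

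Just outside the threshold, the next 8 genes by p-value were Anapc16 (adjusted p = 0.085), Acsl3 (0.099), Elovl5 (0.10), Arrdc3 (0.11), Lpcat3, Rab39, Pank3 and Cyp51 (0.13 each). The 1 with a positive difference, Anapc16, a subunit of the anaphase-promoting complex, stood at 775, 737 and 829.7 normalized counts in DKO cells with GW3965, 497, 457 and 467 with vehicle, 429, 462 and 479 in LXR-positive cells with GW3965 and 443, 496 and 539 with vehicle. The 3 DKO GW3965 libraries lay above all other GW3965 and vehicle libraries (difference 0.82 ± 0.15). With AcLDL, Anapc16 stood at 755, 692 and 442 in DKO cells, so a level in that range was not particular to GW3965. Like the rest of these 8, it was called by DESeq2 (adjusted p = 0.000103). Elovl5, a fatty acid elongase, had a difference of -1.10 ± 0.20, and Lpcat3, which puts polyunsaturated fatty acids into phospholipids, -1.28 ± 0.24. Both rose in LXR-positive cells (1.12 and 1.65) and had DKO responses of 0.02 (-0.29 to 0.33) and 0.37 (-0.01 to 0.74).

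Of the 40 genes induced in LXR-positive cells, 23 were not called in the difference, although all 40 differences lay below 0. In these 23 it ran from -3.85 to -0.46 with a median of -1.11, and adjusted p-values from 0.099 to 0.86. They include Mertk, a receptor for apoptotic cells (-0.67 ± 0.15), and Rnf145, a ubiquitin ligase gene of sterol control (-0.88 ± 0.18). Il1a, the cytokine interleukin-1α, is another (-2.56 ± 0.56) but rests on few reads. Summed over each group, Il1a had 18 reads in DKO cells with GW3965 and 33 with vehicle. LXR-positive cells had 62 Il1a reads with GW3965 and 16 with vehicle. The sign of a difference and the LXR-positive response rest on the same libraries.

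The enzymes of cholesterol synthesis, which SREBP-2 is known to drive, were listed apart. Cyp51, the sterol demethylase, stood at 836, 1222 and 936 in DKO cells with GW3965, 1529, 1401 and 986 with vehicle, 1108, 1171 and 915 in LXR-positive cells with GW3965 and 525, 587 and 567 with vehicle. LXR-positive vehicle libraries lay below all others, and the other 3 groups overlapped. It was 1.20 ± 0.18 higher in DKO cells with vehicle (adjusted p = 0.013), and -0.10 (-0.49 to 0.28) apart with GW3965. Its 166 exon bases shared with Akap9 on the opposite strand leave its level uncertain.

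Of the 21 cholesterol synthesis genes listed, all tested, 0 were called in the difference by limma or edgeR and 2 by DESeq2, while 9 had an unadjusted p under 0.05 in limma. In 20 of the 21 the difference lay below 0 (48.3% of all tested genes), with a median of -0.64. The LXR-positive response was above 0 in all 21 (median 0.61; 47.2% of all tested genes were above 0), with 1 called higher (Fdps, farnesyl diphosphate synthase, 1.12 ± 0.17). The DKO response had a median of -0.01. With GW3965 2 were called lower in DKO than in LXR-positive cells (5.44% of tested genes), Pmvk and Ggps1, named after their values were seen, and the differences between genotypes ran from -0.65 to 0.54 (median -0.04). With vehicle 3 were called higher in DKO cells (0.242% of tested genes), and the median difference was 0.64. These medians describe genes that tend to move together, and they share the vehicle libraries.

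**Figure D4:**
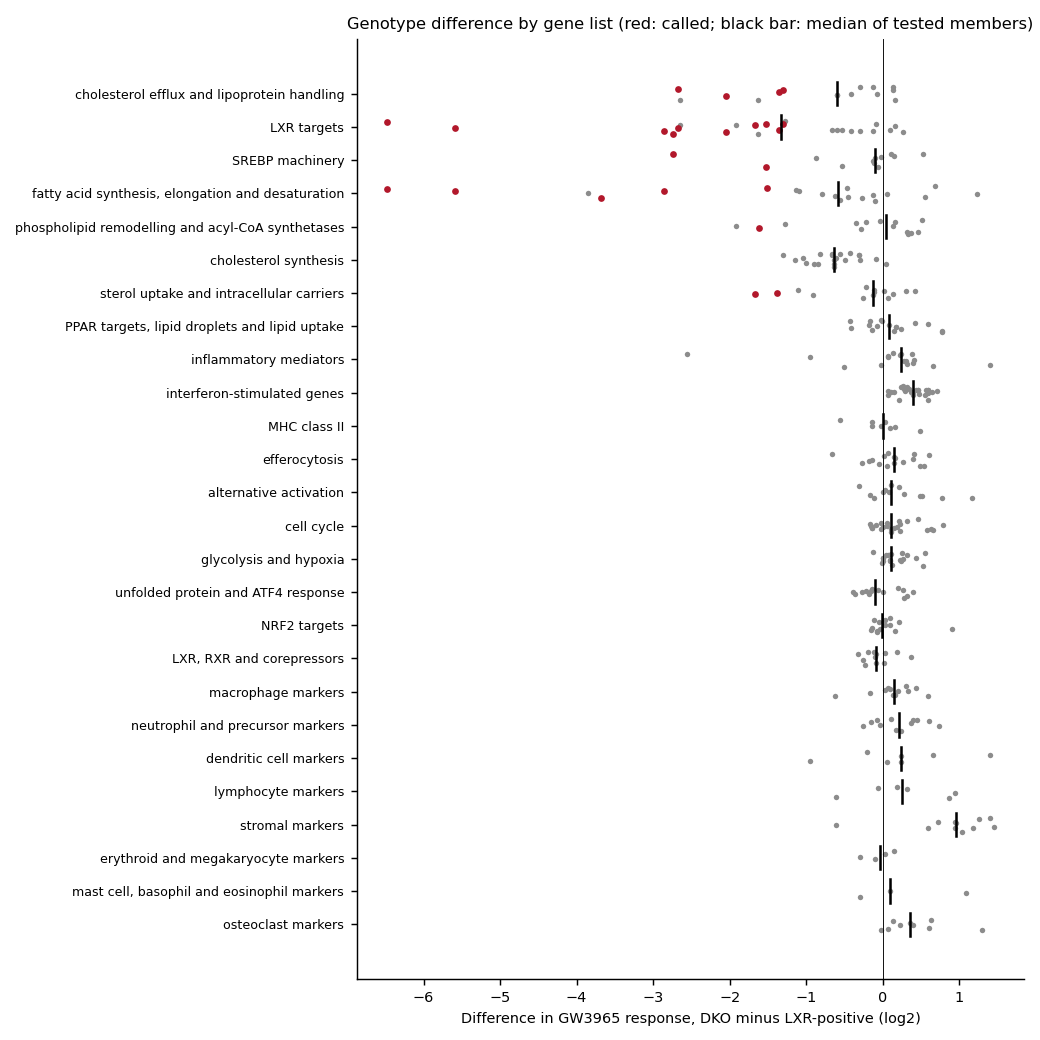
Difference in the GW3965 response (DKO minus LXR-positive, log2) of every tested member of each gene list, with called members in red and a bar at the list median. The members called by limma are all in lipid or LXR target lists, and the 21 cholesterol synthesis genes lie to the left of 0 except 1.

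Outside the lipid and LXR target lists limma called 0 members. The 26 interferon-stimulated genes all lay above 0 (51.7% of all tested genes did) with a median of 0.39, made of -0.38 in LXR-positive and -0.02 in DKO cells, and 0 were called by limma, edgeR or DESeq2, with 2 at an unadjusted p under 0.05 in limma. Of 24 inflammatory mediators 17 were tested, 0 were called by any of the 3 tools and 2 had an unadjusted p under 0.05 (median 0.23). Cell cycle genes (23 tested, median 0.11) and MHC class II genes (8 tested, 0.01) gave 0 by every tool, unadjusted p included. Of 17 tested efferocytosis genes 0 were called by limma or edgeR and 1 by DESeq2 (Mertk), with 2 at an unadjusted p under 0.05 in limma.

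Of 17 tested PPAR target, lipid droplet and lipid uptake genes 0 were called by limma, edgeR or DESeq2 (median 0.08), and 0 had an unadjusted p under 0.05 in limma. Lpl is on this list and on that of LXR targets. The 11 tested stromal markers had a median difference of 0.95 with 0 called by any tool. Of them 10 lay above 0 (51.7% of all tested genes did). Their median response was 1.39 in DKO and 0.33 in LXR-positive cells, and the cause of this shift was not tested. Pdgfrb, for example, had a difference of 1.45 ± 1.05, with an error nearly as large as the value. The 12 receptor and corepressor genes tested had a median of -0.10 and 0 calls by the 3 tools, with 2 at an unadjusted p under 0.05, Ncoa3, a coactivator gene, the lowest (-0.33 ± 0.11). The other 11 lists, of further cell type markers, glycolysis, NRF2 targets, the unfolded protein response and alternative activation, had medians of -0.10 to 0.36 and 0 calls by limma, edgeR or DESeq2. At an unadjusted p under 0.05 limma gave 2 macrophage markers and 1 gene each of the dendritic, glycolysis and NRF2 lists among them.

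GW3965 was last set against AcLDL, acetylated LDL at 50 µg/ml, which loads macrophages with cholesterol through scavenger receptors. How long AcLDL was given is not stated in the labels. The genotype difference with GW3965 minus that with AcLDL is DKO minus LXR-positive of the GW3965 against AcLDL libraries, in which vehicle libraries cancel. In a fit of 18 libraries it was called for 5 of 16663 genes (0.03%), all lower: Srebf1 (-1.66 ± 0.20), Abcg1 (-1.27 ± 0.16, both limma adjusted p = 0.0040), Abca1 (-0.97 ± 0.14, 0.014), Acsl4 (-0.89 ± 0.13, 0.014) and Fasn (-2.07 ± 0.31, 0.021).

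The genotype difference with AcLDL itself was called for 3 genes (0.018%), Abcg1 (-1.40 ± 0.16), Scd2 (-4.43 ± 0.46) and Abca1 (-1.08 ± 0.14). For Abcg1 and Abca1 the genotypes thus differed in both responses, with a larger difference for GW3965. Fasn averaged 528 ± 97.2 with GW3965 and 284 with AcLDL in DKO cells, against 2245 ± 60.0 and 293 in LXR-positive cells, and its difference with AcLDL was -0.79 ± 0.31 (adjusted p = 1.0). Scd2 averaged 261 ± 154 normalized counts with AcLDL and 1869 ± 687 with vehicle in DKO cells, against 685 ± 144 and 238 ± 6.51 in LXR-positive cells. Its difference with AcLDL thus joins a lower level in DKO cells to a higher one in LXR-positive cells, unlike its difference with GW3965. Scd2 differed by -1.17 (95% interval -2.14 to -0.19) between the agents, which did not pass (adjusted p = 1.0). Of the 5 calls, Srebf1 and Abcg1 held without any 1 library. Abca1 was lost without DKO AcLDL 2, DKO GW3965 1 or LXR-positive AcLDL 1 or 3 (0.052 to 0.071), Acsl4 without these or DKO AcLDL 3 (0.053 to 0.071), and Fasn without any 1 of the 12 AcLDL and GW3965 libraries other than DKO AcLDL 3 and DKO GW3965 2 (0.051 to 0.10). Agents differed in dose, kind and possibly time, so the values compare these 2 treatments and no more.

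**Figure D5:**
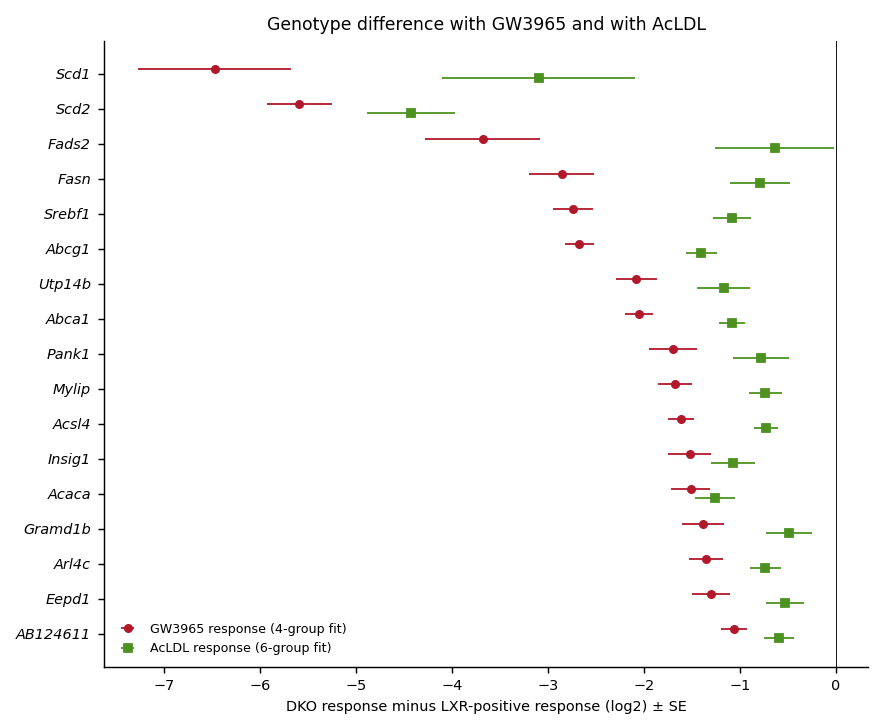
Genotype difference (DKO minus LXR-positive response, log2 ± SE) of the 17 induced genes with GW3965 (fit of 12 libraries) and with AcLDL (fit of 18); the 2 share vehicle libraries. Genes whose GW3965 difference lies further from 0 include Srebf1, Fasn and Acsl4, which were called in the direct comparison of the agents.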

How the data were processed

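RNA of bone-marrow-derived macrophages was sequenced from a stranded total RNA kit, per the labels' protocols. kallisto, DESeq2 and build GRCm38 are named in the submitters' processing notes, without versions, annotation or strand setting. The signal deposited by the authors is the normalized count, a whole count over 1 size factor per library: values came back as whole reads in 100% of cases within 0.01 read. Their deposited scores, log2 fold changes and p-values were not used.

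limma 3.58.1 (trend, R 4.3.3) was fitted to log2(value + 1) with 4 group means and 1 shared spread, and p-values were adjusted by Benjamini-Hochberg over all tested genes. Log2 differences understate changes of low genes. edgeR 4.0.16 and DESeq2 1.42.0 on the recovered reads, other pseudocounts, filters and scalings, thinned reads, all 24 libraries and leaving out each library were alternatives. The scripts were tested on simulated data. Within a genotype, libraries of equal number share a mouse, as each of 6 mice had every treatment, per the series' design; their deviations from group means correlated at r = -0.005, 0.379 and 0.353 (DKO) and 0.211, 0.313 and 0.181 (LXR-positive) over 10678 genes, and a fit with mouse as a block was run beside the unblocked one.

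Named were the targeted genes, all called genes, the next 8 by p-value, and in each of 26 gene lists the members called in the difference or in the LXR-positive response or, with none, up to 2 by p-value. Apoe, Srebf2 and Scap were named beside them, chosen after their values were seen. A gene that the rule names is not reported here. The comparison, its genes and the lists were chosen with earlier results of these data known. Coordinates are those of the deposited table; GENCODE M21 gave exon overlaps (91.0% of 46734 shared identifiers had equal coordinates).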

Additional observations from a re-analysis of the deposited data

Results flagged for a closer look

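The GW3965 response differed between the genotypes, by the test of the difference itself, for 19 genes of 16116 (limma, adjusted p under 0.05). Their values are given gene by gene above.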

How the results depend on the processing

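For the difference in response (19 genes called in limma) DESeq2 gave 55, while the other settings gave 16 (edgeR) to 24 (all 24 libraries), and leaving out 1 library gave 13 to 22. In LXR-positive cells (43 called) DESeq2 gave 86 and leaving out 1 library 36 to 48. In DKO cells (1 called, 940 at an unadjusted p under 0.05) DESeq2 gave 26, edgeR 0, the mouse block 0 and leaving out 1 library 0 to 2. For GW3965 against AcLDL (5 called) DESeq2 gave 8, the mouse block 8 and leaving out 1 library 2 to 5. The cause of these shifts was not tested. No sign reversed among 1677 gene-level values, of which 81 lost and 24 gained a call. Of the 19, 12 held their call under all 23 settings: Abcg1, Scd2, Abca1, Srebf1, Acsl4, Utp14b, Mylip, Fasn, Scd1, AB124611, Arl4c and Acaca. In the difference the mouse block left 19 genes called, 17 of them shared, and changed no call of a named gene beyond Zfp708, Gramd1b, Acsl3 and Apoc2. With reads thinned to the shallowest library 19 genes were called again, 18 of them shared. The size a response without a call could have is given by its interval.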
